A study of Vitis vinifera with 6 samples.

Results

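Abscisic acid (ABA) is a plant hormone of drought response, dormancy and organ abscission, and its level in a tissue depends on how fast it is made and broken down. Zeaxanthin epoxidase (ZEP) makes the epoxidised carotenoids from which ABA derives. The 9-cis-epoxycarotenoid dioxygenases (NCED) cleave these carotenoids to xanthoxin, a step often regarded as limiting for ABA synthesis. Cytochrome P450 enzymes of the CYP707A family hydroxylate ABA at the 8' position, which starts its conversion to phaseic acid. The set described here holds 7 genes, namely 1 ZEP, 3 NCED and 3 CYP707A genes, out of 29971 genes in the table. They were chosen by identifier, with earlier results of these data known, and all 7 are listed. The study's primer table names VIT_18s0001g10500 as CYP707A. The enzyme names of the other members were given together with their identifiers, and neither the expression table nor the RefSeq gene table annotates them. Chromosomes below are those in the identifiers, and sequences and coordinates of the members were not used here.

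‘Jingyanjing’ is a diploid grapevine (2X), and its autotetraploid (4X) was induced from it with colchicine in tissue culture. RNA was sequenced from tip (terminal) buds in 3 libraries for each ploidy. The buds, each library a pool from several vines, were taken about a week before the terminal buds of 4X were shed, a trait of 4X called self-pruning. All vines had the same standard care, no further treatment was applied, and the 4X plants were propagated from several lines, though which line each library came from is not given in the sources used here. The comparison 4X against 2X asks here whether transcripts for ABA synthesis and breakdown differ between buds that will be shed and buds of shoots that keep growing.

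Values are FPKM (fragments per kilobase of transcript, scaled to the mapped fragments of the library), so levels of different genes can be compared within a library. The libraries summed to between 1028187 and 1125409 FPKM, and their depth relative to 2X replicate 1, read from the smallest values, ranged from 0.978 to 1.08. That reading kept only ratios close to equal depth, so it could not have shown a large difference in depth. The fragments behind each value are unknown. On the first principal component of the genes tested (38.1% of the variance), 4X replicate 1 lay at -15.6, near the 2X libraries (-22.8 to -18.6), whereas 4X replicates 2 and 3 lay at 39.95 and 37.1. On the second component (21.4%) it lay at -39.3, far from the 2X libraries (5.46 to 19.2) and from 4X replicates 2 and 3 (16.4 and -13.3), so it stood apart from both groups. Log2 fold changes of the members tested are therefore also given without 4X replicate 1. KNAP2 (VIT_18s0001g08380), a homeobox gene, was present at 43.2 to 87.3 FPKM in all libraries, but meristem genes that would define a bud are not annotated by name here, so the tissue label was not checked further.

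Among the listed copies, a single copy held most of the FPKM of each multi-gene family. Family here means the listed copies, since other copies in the genome were not searched for. The NCED copy VIT_19s0093g00550 and the CYP707A copy VIT_18s0001g10500 were the highest of their families in all 6 libraries. ZEP was the most abundant of the 7 genes, with a mean of 30.3 FPKM over the libraries. Then came VIT_19s0093g00550 (23.3 FPKM), VIT_18s0001g10500 (14.5 FPKM) and the NCED copy VIT_10s0003g03750 (8.72 FPKM). The NCED copy VIT_05s0051g00670 and the CYP707A copy VIT_02s0087g00710 had means of 3.25 and 1.27 FPKM, and the CYP707A copy VIT_07s0031g00690, listed at 0 in 4 libraries, had the lowest listed mean. ZEP lay above 66.2% of the genes tested and VIT_02s0087g00710 above 2.43% of them.

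Within families the order of the copies held in every library. VIT_19s0093g00550 was 1.61 to 4.27 times as high as VIT_10s0003g03750, and VIT_10s0003g03750 was 1.51 to 6.58 times as high as VIT_05s0051g00670. VIT_18s0001g10500 was 4.07 to 29.1 times as high as VIT_02s0087g00710. VIT_02s0087g00710 had the higher listed value than VIT_07s0031g00690 in all 6 libraries, but the 0s of the latter leave the size of that difference to the pseudocount, and nothing is read from its test. The other 3 pairs of neighbours were compared by the paired difference of log2(FPKM + 0.1) in a two-sided exact sign-flip permutation test over 6 libraries. Each reached the smallest p the test can give (2 of 64 sign flips as extreme). Benjamini-Hochberg adjustment over the 4 pairs leaves that p as it is. The neighbours were set by mean FPKM over these same libraries, so the test is no independent check of the order. With any library left out the smallest p becomes 0.0625, and the order did not change. Between families the neighbours were closer. In 2X replicate 3 the leading NCED copy was only 1.02 times as high as the leading CYP707A copy, and in 4X replicate 1 VIT_05s0051g00670 was 0.659 times as high as VIT_02s0087g00710, so that this last order did not hold in every library.

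**Figure D1:**
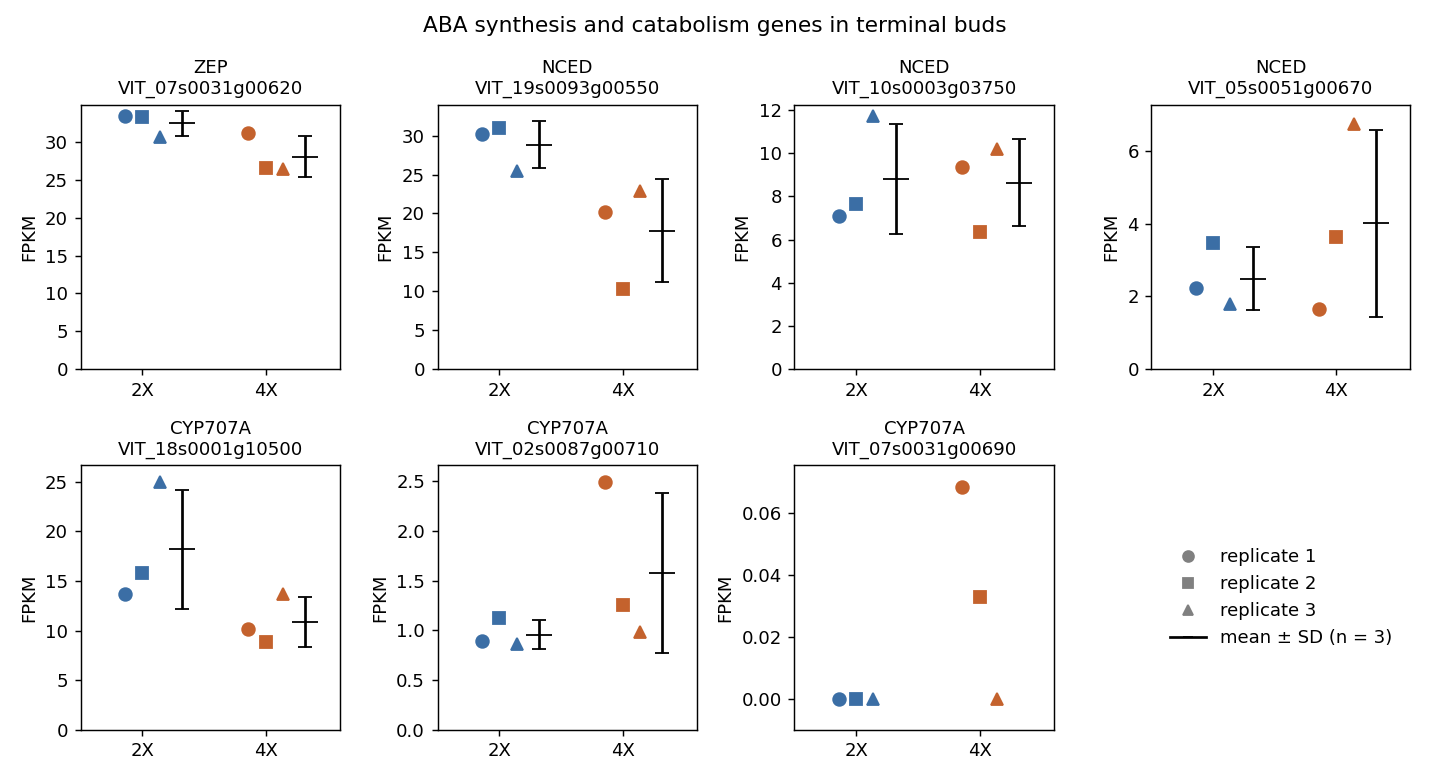
FPKM of the 7 genes in each library (y axis, linear, a scale of its own in each panel), with 2X in blue and 4X in orange, 1 symbol per replicate number and bars for the mean ± SD (n = 3; not drawn for VIT_07s0031g00690, listed at 0 in 4 libraries). The 4X points lie below all 2X points for NCED VIT_19s0093g00550 and, by 0.0388 FPKM, for CYP707A VIT_18s0001g10500, and the other genes overlap between ploidies.

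When 4X was compared with 2X, the leading NCED copy and the leading CYP707A copy both had lower means in 4X, the mean of ZEP in 4X was 0.865 times that in 2X, and the minor copies overlapped between ploidies. None of the 6 members that reached the limit for testing (1 FPKM on average over the 6 libraries) was called by limma at an adjusted p under 0.05. Among all 18119 genes tested, 0.0607% were called higher and 0.0276% lower. At an unadjusted p under 0.05, 0 members were higher and 2 lower, where 7.79% of all genes were higher and 6.53% lower. The same 2 members had all 4X values below all 2X values, VIT_19s0093g00550 and VIT_18s0001g10500, and 0 had all above, where 8.85% of all genes tested lay below and 11.2% above. The study had already reported the CYP707A gene it assayed, the leading copy here, as lower in the autotetraploid. The direction of that copy, and its place in these counts, are therefore not independent evidence. The median log2 fold change of the 6 members was -0.11, and that of all genes tested was 0.01. In whole buds, fewer cells that express a gene and less of its RNA in each cell cannot be told apart.

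ZEP (VIT_07s0031g00620, chromosome 7), which acts upstream of the NCED step in plastids, had 33.5, 33.4 and 30.6 FPKM in 2X replicates 1, 2 and 3 and 31.2, 26.6 and 26.5 FPKM in 4X replicates 1, 2 and 3. Of the 6 members tested it had the smallest ratio of highest to lowest value within each ploidy (1.09 in 2X and 1.18 in 4X). 4X replicate 1 lay among the 2X libraries, so the groups overlapped. FPKM averaged 32.5 ± 1.61 for 2X and 28.1 ± 2.68 for 4X (SD, n = 3). The log2 fold change, 4X over 2X on the scale of log2(FPKM + 1), was -0.21 with a 95% interval of -0.44 to 0.03 (SE 0.10), and limma gave an adjusted p of 0.401. Without 4X replicate 1 it was -0.28 (adjusted p = 0.142 from limma).

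The leading NCED copy VIT_19s0093g00550 (chromosome 19) had 30.2, 31.0 and 25.4 FPKM in 2X replicates 1, 2 and 3. The values of 4X replicates 1, 2 and 3 were 20.2, 10.3 and 22.8 FPKM. The groups did not overlap, and the lowest library, 4X replicate 2, held less than the others by a wide margin. FPKM averaged 28.9 ± 2.98 for 2X and 17.8 ± 6.64 for 4X (SD, n = 3), a ratio of 0.616 (exact permutation test of 3 libraries against 3, p = 0.1, the smallest it can give). By limma, 4X differed from 2X by -0.74 on the log2 scale with a 95% interval of -1.39 to -0.08 (SE 0.28; adjusted p = 0.296), and over the 15 alternatives the adjusted p ranged from 0.137 to 0.651. The log2 difference was -0.86 without 4X replicate 1 and -0.40 without 4X replicate 2, so the size of the difference rested in large part on the latter library.

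The NCED copy VIT_10s0003g03750 (chromosome 10) had 7.07, 7.65 and 11.7 FPKM in 2X and 9.34, 6.36 and 10.2 FPKM in 4X replicates 1, 2 and 3. Its highest library was a 2X and its lowest a 4X library, with the rest interspersed. By limma, 4X differed from 2X by -0.02 on the log2 scale with a 95% interval of -0.57 to 0.53 (SE 0.23; adjusted p = 0.986). The log2 difference was -0.08 without 4X replicate 1, and its sign turned under some of the alternatives.

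The third NCED copy, VIT_05s0051g00670 (chromosome 5), had 2.22, 3.46 and 1.78 FPKM in 2X replicates 1, 2 and 3. The values of 4X replicates 1, 2 and 3 were 1.64, 3.64 and 6.74 FPKM. The lowest and the highest of the 6 values were thus both from 4X, and the groups overlapped through 4X replicate 1. By limma, 4X differed from 2X by 0.42 on the log2 scale with a 95% interval of -0.52 to 1.36 (SE 0.40; adjusted p = 0.696). The log2 difference was 0.81 without 4X replicate 1 (adjusted p = 0.191 from limma) and 0.03 without 4X replicate 3.

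The CYP707A copy that the study assayed, VIT_18s0001g10500 (chromosome 18), held most of the summed FPKM of the 3 listed CYP707A copies. The study's quantitative PCR primers are shown, 5′ to 3′, as listed under this identifier. The primers were not matched here to the sequence of any copy. They have 20 and 21 bases, of which 10 in each are G or C, and no letters are marked by capitals.
CYP707A forward: gtgaaaccctgaccaatgac
CYP707A reverse: ttctgttcagcctttacagcc
In RNA-Seq the gene had 13.72, 15.8 and 25.0 FPKM in 2X replicates 1, 2 and 3. The values of 4X replicates 1, 2 and 3 were 10.1, 8.83 and 13.68 FPKM. All 4X values were below all 2X values, but the gap between 2X replicate 1 and 4X replicate 3 was 0.0388 FPKM. 2X replicate 3 stood highest by far. FPKM averaged 18.2 ± 5.99 for 2X and 10.9 ± 2.51 for 4X (SD, n = 3), a ratio of 0.598 (exact permutation test, p = 0.1). Since the study had already reported this gene as lower in the autotetraploid, the tests given here are no independent check of its direction. By limma, 4X differed from 2X by -0.67 on the log2 scale with a 95% interval of -1.25 to -0.09 (SE 0.24; adjusted p = 0.288). The log2 difference was -0.63 without 4X replicate 1 and -0.43 without 2X replicate 3. It was -0.25 with array weights, which weight libraries by their fit, and the adjusted p ranged from 0.206 to 0.526 over the 15 alternatives.

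Of the minor CYP707A copies, VIT_02s0087g00710 (chromosome 2) had 0.890, 1.12 and 0.860 FPKM in 2X and 2.49, 1.26 and 0.979 FPKM in 4X replicates 1, 2 and 3. The high value belonged to 4X replicate 1, the library that stood apart on the second component, and 4X replicate 3 lay within the range of 2X. Its 2X mean of 0.957 FPKM was under the limit of 1 FPKM, so it entered the test through its 4X values. By limma, 4X differed from 2X by 0.35 on the log2 scale with a 95% interval of -0.23 to 0.94 (SE 0.25; adjusted p = 0.574), and 0.11 without 4X replicate 1.

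VIT_07s0031g00690 (chromosome 7), the third CYP707A copy, was listed at 0 in 2X replicates 1, 2 and 3 and in 4X replicate 3. It had 0.0686 FPKM in 4X replicate 1 and 0.0329 FPKM in 4X replicate 2. Its listed mean was under the limit for testing, so the main limma fit left it out. In the alternative fit without a filter on low values its log2 fold change was 0.05 (adjusted p = 0.670 from limma). In the table, 87 genes were at 0 in some libraries while at 5 FPKM or more in all others, so a listed 0 need not mean low expression. By its identifier this copy lies near ZEP on chromosome 7, with 6 listed genes between them, all 6 of which were tested.

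**Figure D2:**
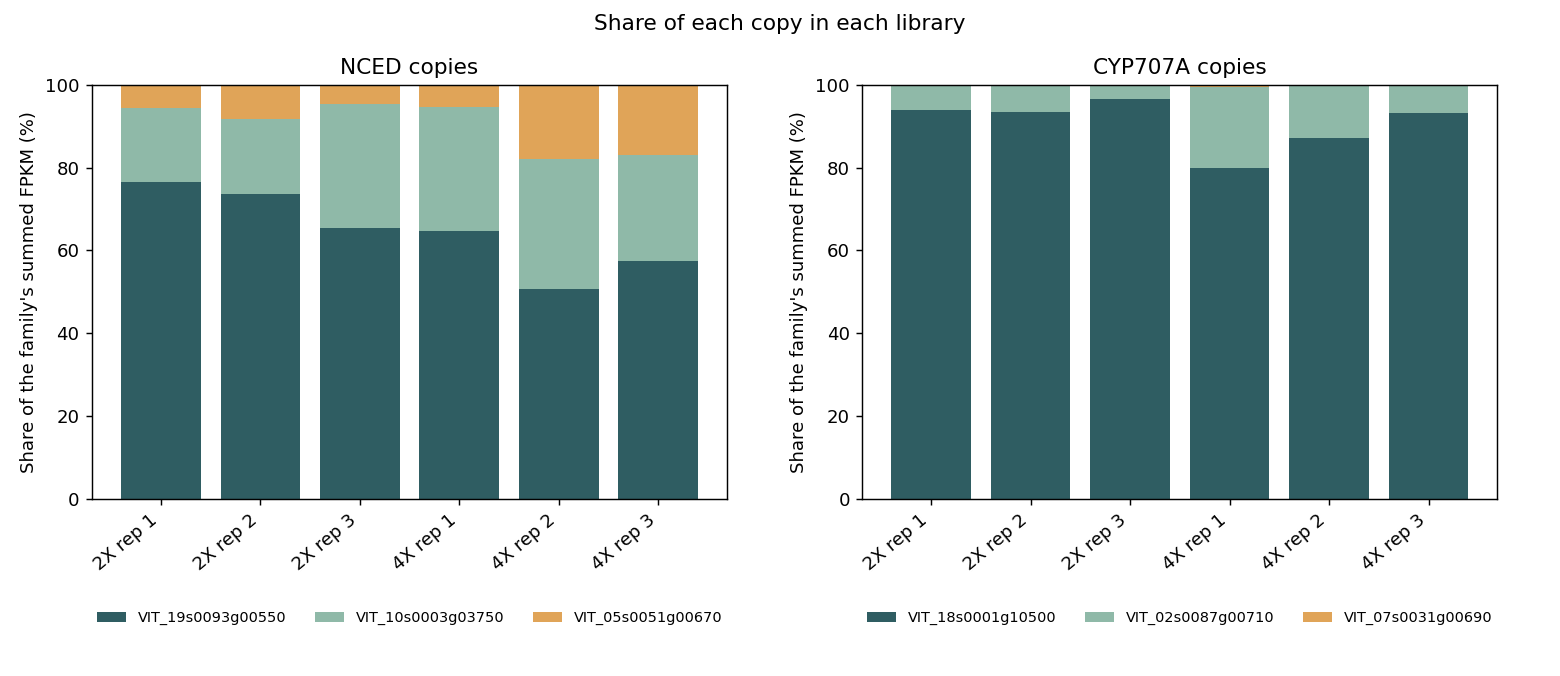
Share of each copy in the summed FPKM of its family (y axis, %), with 1 stacked bar per library for the 3 NCED copies (left) and the 3 CYP707A copies (right). VIT_19s0093g00550 held 50.6% to 76.5% of NCED and VIT_18s0001g10500 79.8% to 96.7% of CYP707A.

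The leading copies held a smaller mean part of their listed families in 4X. A share is built on the same FPKM reported above as lower in 4X, so it is no separate result. The share of VIT_19s0093g00550 in the summed FPKM of the 3 NCED copies was 76.5%, 73.6% and 65.4% in 2X replicates 1, 2 and 3, and 64.8%, 50.6% and 57.4% in 4X replicates 1, 2 and 3. The groups were apart, although 2X replicate 3 and 4X replicate 1 nearly met. The mean share was 71.8% ± 5.77 in 2X and 57.6% ± 7.08 in 4X (SD, n = 3; exact permutation test, p = 0.1, the smallest possible). VIT_05s0051g00670 took 17.97% and 16.9% of NCED in 4X replicates 2 and 3 and 5.25% in 4X replicate 1, against 4.57% to 8.22% in 2X. VIT_10s0003g03750 held 17.9% to 30.1% in 2X and 25.6% to 31.4% in 4X. Neither of these shares separated the ploidies (exact permutation test, p = 0.3 for each).

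Within CYP707A, the share of VIT_18s0001g10500 was 93.9%, 93.4% and 96.7% in 2X and 79.8%, 87.3% and 93.3% in 4X replicates 1, 2 and 3. All 4X shares were below all 2X shares (exact permutation test, p = 0.1), by the narrowest of margins in 4X replicate 3. The difference of the means was -7.85 percentage points, and without 4X replicate 1 it was -4.37. The remainder of the listed FPKM belonged almost wholly to VIT_02s0087g00710, with 19.6% in 4X replicate 1 as its highest share. These CYP707A shares take the values of VIT_07s0031g00690 as listed, and a listed 0 need not mean low expression. After Benjamini-Hochberg adjustment over the 6 shares, the smallest p of these exact tests was 0.2. Since 3 against 3 libraries cannot give a p below 0.1, no share could pass 0.05.

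**Figure D3:**
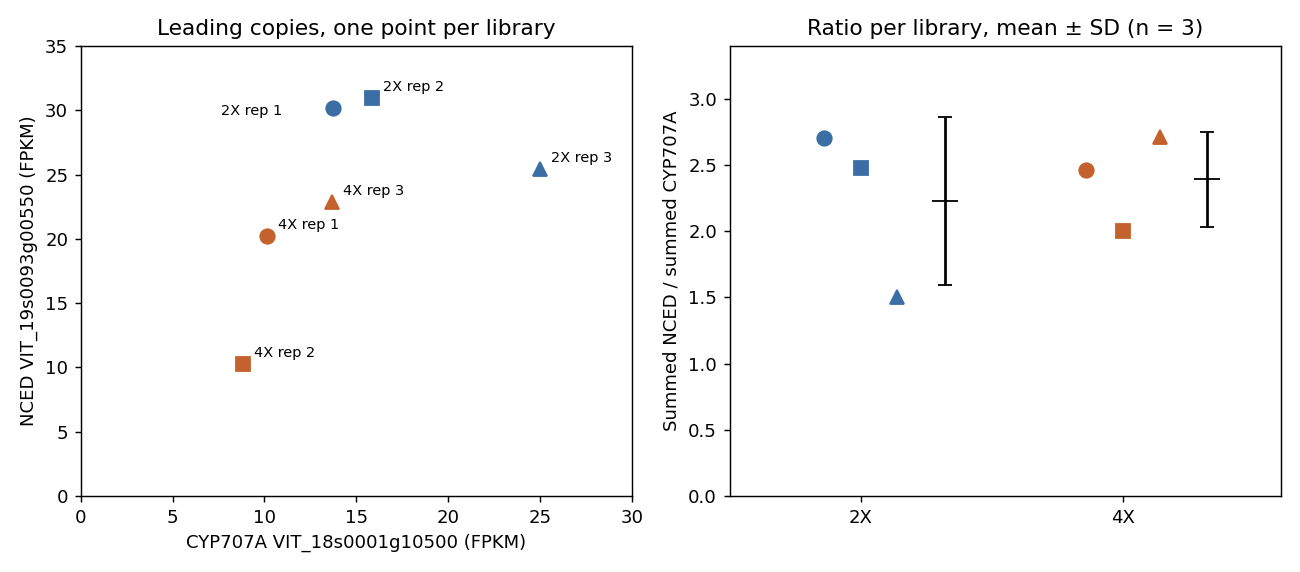
Left, FPKM of the leading NCED copy (y axis) against the leading CYP707A copy (x axis), 1 point per library, and right, the ratio of the summed FPKM of the NCED copies to that of the CYP707A copies, with the mean ± SD (n = 3). 4X replicate 2 is lowest for both leading copies, and the ratios of 2X (1.51 to 2.70) and 4X (2.00 to 2.71) overlap.

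The balance of transcripts for synthesis and breakdown was compared as the ratio of summed NCED to summed CYP707A FPKM in each library. It was 2.70, 2.48 and 1.51 in 2X and 2.46, 2.00 and 2.71 in 4X replicates 1, 2 and 3. The ploidies overlapped, and the lowest ratio was that of 2X replicate 3, where VIT_18s0001g10500 was highest. Summed NCED was 40.2 ± 1.67 FPKM in 2X and 30.4 ± 9.78 FPKM in 4X, and summed CYP707A was 19.1 ± 5.93 and 12.5 ± 2.28 FPKM (SD, n = 3). The log2 ratio was higher in 4X by 0.14 (exact permutation test, p = 0.8), and without 2X replicate 3 the difference was -0.12. A difference in the ratio between ploidies was thus not detectable with these libraries.

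ABA acts through receptors that inhibit type 2C protein phosphatases (PP2C) and so release SnRK2 kinases, which switch on responsive genes. The primer table lists SnRK2 and 7 ABA response genes, and the study chose them on these same libraries, so their direction is not independent evidence. All 8 were tested, 0 were called by limma in either direction, and the adjusted p ranged from 0.124 to 0.765. At an unadjusted p under 0.05, 4 of the 8 were higher and 0 lower, where 7.79% of all genes tested were higher and 6.53% lower. The same 4 genes, SnRK2, GRAM, HAI and RD22, lay higher in all 4X libraries than in any 2X library, as did 11.2% of all genes tested. Over the 8 genes the log2 fold change had a median of 0.72, against 0.01 for all genes tested.

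SnRK2 (VIT_02s0236g00130), named for the kinase at the centre of the pathway, had 16.6, 17.4 and 14.2 FPKM in 2X and 23.5, 28.0 and 33.0 FPKM in 4X replicates 1, 2 and 3. The groups were well apart. By limma SnRK2 differed by 0.76 on the log2 scale with an SE of 0.14 (adjusted p = 0.124). Without 4X replicate 1 the difference was 0.88 and the gene was called (adjusted p = 0.0225 from limma). That fit called 185 genes higher and 569 lower among all 18119 tested, against 11 and 5 with all libraries. RD22 (VIT_04s0008g03930), a dehydration-responsive gene in Arabidopsis, had 149, 168 and 122 FPKM in 2X and 229, 203 and 283 FPKM in 4X replicates 1, 2 and 3. It was the most abundant of the 8 genes, and by limma differed by 0.70 on the log2 scale with an SE of 0.16 (adjusted p = 0.163). HAI (VIT_16s0050g02680), whose Arabidopsis namesakes are PP2C genes induced by ABA, had 9.15, 16.5 and 9.56 FPKM in 2X and 18.9, 24.7 and 72.4 FPKM in 4X replicates 1, 2 and 3. 4X replicate 3 stood far above the rest. HAI differed by 1.44 on the log2 scale with an SE of 0.49 (adjusted p = 0.259 from limma), and by 0.87 without that library. GRAM (VIT_10s0071g00320) had 1.48 to 1.95 FPKM in 2X and 2.37 to 5.57 FPKM in 4X. The other 4 genes, HB (VIT_15s0048g02870), RD26 (VIT_19s0014g03290) and both HAV22A genes (VIT_03s0132g00070 and VIT_03s0038g01650), overlapped between ploidies, with log2 fold changes of 0.37 to 0.76. Those of the HAV22A genes VIT_03s0132g00070 and VIT_03s0038g01650 were 0.76 and 0.60, and 0.13 and 0.07 without 4X replicate 1. That of RD26 was 0.63, and 0.16 without 4X replicate 3. That of HB was -0.17 without 4X replicate 3. For GRAM it was 0.74, and 0.46 without 4X replicate 1.

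**Figure D4:**
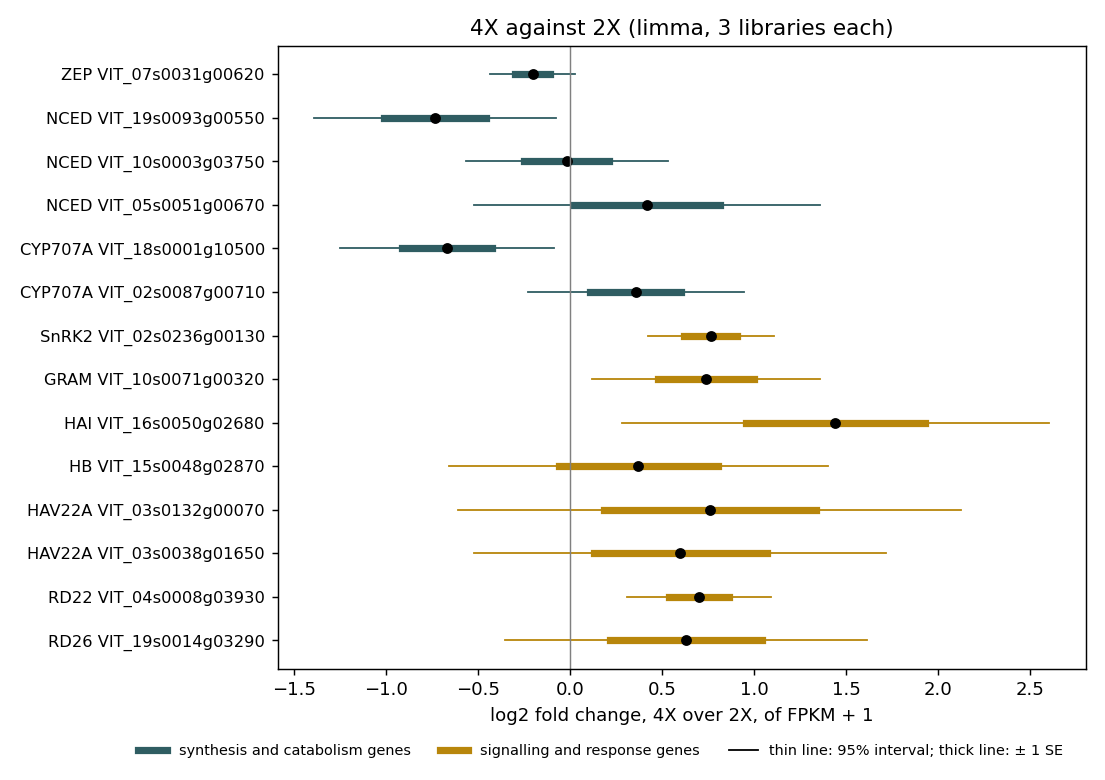
Log2 fold change of FPKM + 1, 4X over 2X (x axis), for the 6 members tested (teal) and the 8 ABA signalling and response genes (ochre), with ± 1 SE (thick) and the 95% interval (thin) from limma. Among the members the intervals of VIT_19s0093g00550 and VIT_18s0001g10500 lie below 0, and no gene shown passed an adjusted p of 0.05.

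The genes whose FPKM followed the leading copies most closely across the 6 libraries were found by the Pearson r of log2(FPKM + 1) among the 18118 other genes tested. With 6 points that share their ploidy groups and libraries, high values are easily reached, and no p is given. For VIT_19s0093g00550 they were VIT_00s0291g00050 (r = 0.999), VIT_16s0050g00160 (r = 0.995) and VIT_09s0054g01760 (r = 0.988), and 35 genes had r above 0.95. VIT_00s0291g00050 had 17.3 to 20.1 FPKM in 2X and 14.3, 9.08 and 16.1 FPKM in 4X replicates 1, 2 and 3, with the same order of libraries as the NCED copy. For VIT_18s0001g10500 they were VIT_13s0019g04540 (r = 0.995), VIT_11s0016g00700 (r = 0.994) and VIT_11s0206g00180 (r = 0.987), and 26 genes had r above 0.95. VIT_13s0019g04540 was highest in 2X replicate 3 with 411 FPKM and lowest in 4X replicate 2 with 266 FPKM, as was the CYP707A copy.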

How the data were processed

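The authors trimmed reads with the FASTX-Toolkit and aligned them with TopHat2 2.0.14 to the V. vinifera genome and annotation of Ensembl Plants, and called differential expression with Cufflinks 2.2.1. They deposited FPKM per gene and library. Genome build, strand handling, treatment of multiply mapped reads and any scaling between libraries are not given in the sources used here, so close copies may share reads. The FPKM were used as deposited, and 0 columns of values were left out.

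Members and lists were chosen with earlier results of these data known. limma 3.58.1 (R 4.3.3) was fitted to log2(FPKM + 1) of 18119 genes averaging 1 FPKM or more, with a variance trend and Benjamini-Hochberg adjustment over all genes tested. This replaced Cufflinks, which needs reads. A pseudocount understates changes of low genes. The code was tested on simulated data. Shares and ratios were compared with exact permutation tests of 3 against 3 libraries, two-sided, and copies with exact sign-flip tests. Summaries used Python 3.11.15, pandas 2.3.3, numpy 2.4.6 and matplotlib 3.10.9. The genes named are the 7 members, the 8 ABA genes of the primer table, the 3 genes most like each leading copy, KNAP2, and actin as a reference. Lists of pathway and meristem genes by description were planned but not made, since the RefSeq gene table matched 0 identifiers. Alternatives were the pseudocount, filter, scaling, variance model, array weights, replicate block and leaving out each library.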

Additional observations from a re-analysis of the deposited data

How the results depend on the processing

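For the members, 0 were called in either direction under all but 1 of the 15 alternatives. Array weights, which put most of the weight of 4X on replicate 3, called 1 higher and 1 lower, where it called 2271 higher and 1988 lower among all 18119 genes tested. These were VIT_05s0051g00670 (log2 fold change 0.98, adjusted p = 0.0473 from limma) and ZEP (-0.30, adjusted p = 0.0202 from limma). Of the response genes this setting called 4 higher, and leaving out 4X replicate 1 called 1, SnRK2, whereas with any other library left out 0 were called. Without 4X replicate 1, 185 genes were called higher and 569 lower among all genes tested. The log2 fold change of VIT_10s0003g03750 turned to 0.11 when scaled to actin (VIT_04s0044g00580) and to 0.29 with array weights, and it ranged from -0.14 to 0.18 with a library left out. That of HB (VIT_15s0048g02870) ranged from -0.17 to 0.69 with a library left out, and that of HAV22A (VIT_03s0038g01650) was -0.015 with array weights. Over all genes tested, scaling to actin moved the median from 0.01 to 0.15 on the log2 scale. Actin itself had 1021 to 1292 FPKM.

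Among all genes, 11 were called higher and 5 lower. The counts were 37 and 16 when scaled to actin and 0 and 0 without a filter on low values. At an unadjusted p under 0.05 the scaling to actin gave 2186 higher and 541 lower, against 1411 and 1183. Leaving out a library gave 0 to 185 higher and 0 to 569 lower, in each case with the highest count without 4X replicate 1. With the replicate number as a block (replicate block) 0 were called in either direction by limma, with 1259 higher and 1031 lower at an unadjusted p under 0.05. Whether the numbers pair the libraries is not given in the sources used here. Same-numbered deviations correlated at -0.01, -0.05 and 0.09 over all genes tested, which cannot exclude pairing for part of the genes. The log2 ratio of summed NCED to summed CYP707A ranged from -0.12 to 0.30 with a library left out.

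With a library left out the paired log2 differences between copies ranged from 1.21 to 1.49 for VIT_19s0093g00550 over VIT_10s0003g03750 and from 1.31 to 1.73 for VIT_10s0003g03750 over VIT_05s0051g00670. They ranged from 3.18 to 3.72 for VIT_18s0001g10500 over VIT_02s0087g00710 and from 3.39 to 3.53 for VIT_02s0087g00710 over VIT_07s0031g00690. The last range is set by the pseudocount of 0.1, since the lower copy was listed at 0 in 4 libraries, and with a pseudocount of 1 the difference over 6 libraries was 1.12, against 3.48. With a library left out, each of these differences had p = 0.0625, the smallest that 5 libraries can give in an exact test.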

Other observations

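The 4X libraries differed among themselves in which ABA genes were high. In 4X replicate 1, HAV22A VIT_03s0132g00070 had 120.3 FPKM against 30.4 and 33.0 FPKM in 4X replicates 2 and 3, and HAV22A VIT_03s0038g01650 had 25.7 against 7.65 and 8.27 FPKM. The CYP707A copy VIT_02s0087g00710 and GRAM (VIT_10s0071g00320) also had their highest values in that library, with 2.49 and 5.57 FPKM. In 4X replicate 3, by contrast, HB (VIT_15s0048g02870) had 20.6 FPKM against 6.60 and 5.56 FPKM in 4X replicates 1 and 2, and RD26 (VIT_19s0014g03290) had 25.6 against 10.4 and 7.79 FPKM. HAI (72.4 FPKM) and the NCED copy VIT_05s0051g00670 (6.74 FPKM) were highest there as well. These genes were picked out after their values were seen, and no test was run on the pattern.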
